A study of Mus musculus with 82 samples.

Results

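The combined incubation of aortic vascular smooth muscle cells (aVSMC) with epidermal growth factor (EGF) and U46619 for 48 h was compared with the sum of what the 2 agents did alone. The samples were the 20 bulk RNA libraries, of 82 in the series, of the first 48 h batch, and they made up 5 culture sets. Each set held 1 culture of each of 4 groups, namely control, 10 µg/L EGF, 1 µM U46619 and both agents together, all for 48 h. All cultures were primary cells from the aortae of C57BL/6 mice, kept for at most 7 passages, and every group, the controls included, had spent 24 h without growth supplements beforehand. The labels number 4 mice for the 5 sets (sets 1 and 4 carry the same number), whereas the study's methods describe a different mouse for each replicate, so p-values measure the spread between culture sets. For each gene and set the departure from additivity was log2 EGF+U46619 minus log2 EGF minus log2 U46619 plus log2 control. It is 0 where the fold changes of the single agents multiply. A gene is called beyond the sum where the departure has the same sign as the summed single changes, and short of the sum where it has the opposite sign.

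EGF activates the EGF receptor (EGFR), a receptor tyrosine kinase that signals through RAS and the kinases MEK and ERK. U46619 is a stable analogue of thromboxane A2 and activates the thromboxane receptor TP, a G protein-coupled receptor that contracts smooth muscle cells and can transactivate EGFR. Lasting ERK activity induces its own inhibitors, among them the dual-specificity phosphatases, Sprouty and SPRED proteins, as well as the transcription factors ETV4, ETV5 and FOSL1.

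Summed FPM (counts scaled to library size, with TMM factors) of smooth muscle markers ranged from 422 to 7928 over the 20 libraries, although the marker genes Tagln and Cnn1 were listed at 0, as were all genes on chromosomes 9, X, Y and MT. Endothelial markers summed to between 8.41 and 1089 FPM, 1 of 7 (Cdh5) being listed at 0. The sums were 19.7 to 967 FPM over the controls and 8.41 to 1003 FPM over the EGF+U46619 cultures. That spread lay mostly between sets. The endothelial marker Pecam1 read 432, 52.3, 63.6, 94.9 and 0.342 FPM in the controls of sets 1 to 5. Myh11, of smooth muscle, ran from 2.51 FPM (set 5) to 237 FPM (set 4) in controls. Sox10 and Ngfr, neural crest or glial markers, read 30.5 and 75.4 FPM in the set 2 control. In the other controls they read at most 2.43 FPM. The part of these set differences in the departures was not tested. Macrophage markers were at 49.99 to 132 FPM in controls and 38.4 to 71.3 FPM with EGF+U46619, and adventitial fibroblast markers at 666 to 1615 FPM and 558 to 1474 FPM. In bulk RNA, fewer cells of a type and less RNA per cell cannot be told apart. Total counts ranged from 19936925 to 32797224 per library.

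No gene of 14634 tested passed a false discovery rate (FDR) of 0.05 for the departure in edgeR's quasi-likelihood test with the culture set as a block (percent called 0), nor in DESeq2. An unadjusted p under 0.05 was found for 431 genes in edgeR (2.95%) and for 426 in DESeq2, and of the 431 the departure was above 0 for 198 (1.35%) and below 0 for 233 (1.59%). The departure was above 0 in all 5 sets for 1012 genes (6.92%) and below 0 in all 5 for 1137 genes (7.77%). Over all 14634 genes the fitted departure was above 0 for 7296 and below 0 for 7338. limma applied to the 5 per-set departures, which leaves the differences between sets in the single effects out of the error, called 121 genes (0.827%). Of these, 30 lay above the sum (0.205%) and 91 below it (0.622%), with 2535 genes at an unadjusted p under 0.05 (17.3%). edgeR called 112 genes (0.765%) once each set was given its own EGF and its own U46619 effect, and 104 of the 121 were among them. In edgeR with the set as a block, 64 of the 121 had an unadjusted p under 0.05. The median standard error of the departure was 0.171 in the edgeR fit with the set as a block, on 12 residual degrees of freedom, and 0.0999 (edgeR with set-specific effects) and 0.1 (limma) in those 2 fits, on 4. The limma calls depended on which set was left out, with 0 genes called without set 2, 3, 4 or 5 (1749, 1541, 2035 and 2435 at an unadjusted p under 0.05) and 657 without set 1. Across 10420 genes the departures of set 1 correlated at 0.0302 with the mean of the other sets, and those of sets 2 to 5 at 0.303 to 0.551. Values below are edgeR's departure with its standard error (SE) from the fit with the set as a block, in log2, beside the FDR of limma over the sets. A gene is said to have passed only by the limma test.

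For most genes the interval of the departure excluded a 2-fold change, a bound that is wide beside the single changes. The median standard error was 0.171, beside median absolute changes of 0.123 with EGF and 0.213 with U46619. The 95% interval of the edgeR departure lay within a 2-fold change either way for 11773 genes (80.4%). Among the 10420 genes with a mean of at least 5 FPM in a group, it did so for 10110 (97.0%) and lay within 1.5-fold for 8356 (80.2%). Among the 3737 genes called with U46619 at 48 h, it lay within 1.5-fold for 2322 (62.1%).

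The 121 genes of limma were mostly short of the sum. Of the 91 below it, 78 were higher with each agent alone, with a median log2 change of 0.34 with EGF, 0.49 with U46619, 0.81 for the sum and 0.39 measured with EGF+U46619. The combined median was therefore below that of U46619 alone. Of the 30 above the sum, 27 were lower with each agent alone, and the medians were −0.27, −0.41, −0.62 and −0.31 in the same order. In all, 112 genes were short of the sum and 9 beyond it, and 114 had the same sign of departure in all 5 sets. Short of the sum was also the more common side over all genes, 10948 of 14634 (74.8%), and the departure and the sum are computed from the same libraries. The single changes were called by edgeR at FDR 0.05 for 81 of the 121 with U46619, for 71 with EGF+U46619 and for 4 with EGF.

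**Figure D1:**
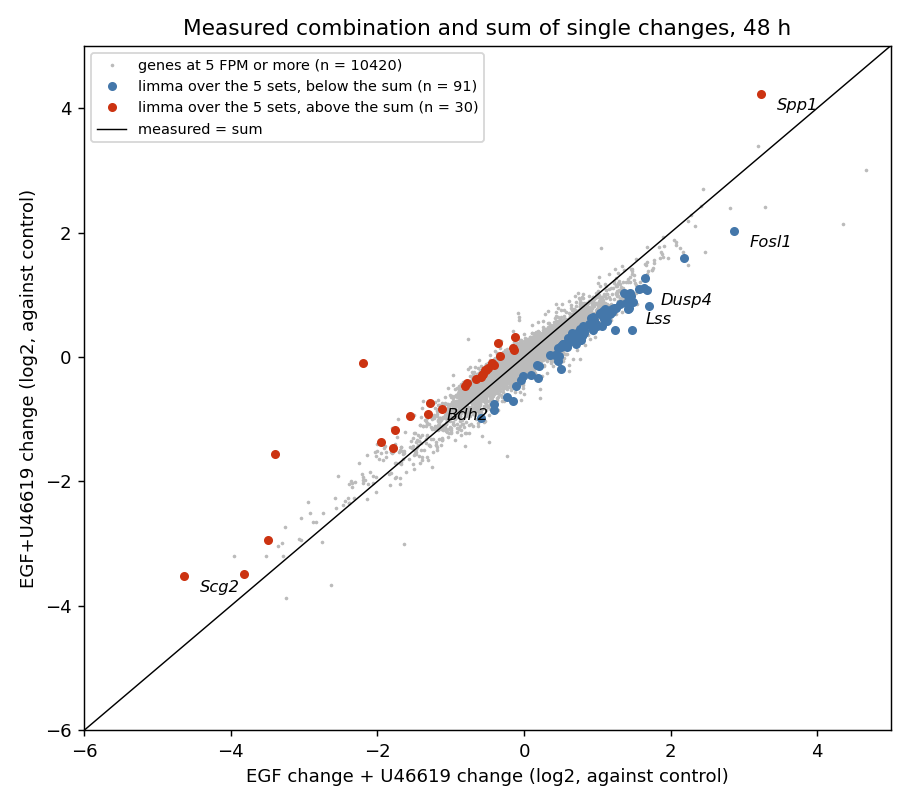
Measured log2 fold change with EGF+U46619 (y axis) against the summed changes of the single agents (x axis) for 10420 genes with a mean of at least 5 FPM, n = 5 culture sets; the line marks measured = sum. Genes that passed limma below the sum are blue and those above it red; most blue points lie to the right of 0 and below the line, while Spp1 lies above it at a sum of 3.23 and a measured 4.22.

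At the receptors the departure was close to 0. Egfr, the gene of the EGF receptor, had a departure of −0.06 (SE 0.30) and a change of 0.06 with EGF+U46619. Tbxa2r, which encodes TP, fell both with U46619 (−1.16, edgeR FDR 4.94e-05) and with EGF+U46619 (−1.497, edgeR FDR 2.85e-06), while its change with EGF was −0.34 and its departure 0.01 (SE 0.21, 95% interval −0.43 to 0.44). The sign of that departure differed between fits. Of the 7 EGFR ligand genes listed, 5 were tested, none passed and their median departure was 0.03.

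EGF alone changed few genes. In the same edgeR fit 8 genes passed FDR 0.05 with EGF (0.0547%), against 3737 with U46619 (25.5%) and 4565 with EGF+U46619 (31.2%). The 5 that rose with EGF (0.0342%) were Etv5, Trib2 (a pseudokinase gene), Fgd6, Slc7a11 (the cystine transporter) and Prl2c3, a member of a multigene family whose reads were counted at several sites and whose value is therefore uncertain. Scg2, Fst and Kcne4 fell (0.0205%). Of the 8, 7 were short of the sum, beside 74.8% of all genes. The 8 were chosen for their EGF change, which enters the departure with a minus sign. Their departures ran from −0.68 for Fgd6 to 1.13 for Scg2, and Prl2c3 was the exception at 0.02. EGF added to U46619 changed 2 genes (0.0137%), P2ry1, a purinergic receptor gene with a departure of 0.75 (SE 0.29) at under 5 FPM that did not pass limma (FDR 0.467), and Prl2c3.

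Etv5, Etv4, Dusp4, Dusp6, Spred2 and Fosl1, which ERK signalling can induce, passed below the sum. They include 3 of the 14 feedback inhibitors and 1 of the 13 AP-1 and EGR genes listed, and the others of those lists did not pass. Of all genes, 0.622% passed below the sum. Etv5 read 54.7, 37.3, 31.0, 40.01 and 29.7 FPM in the controls of sets 1 to 5, 73.3, 56.6, 53.6, 51.3 and 42.5 FPM with EGF, 53.5, 43.4, 40.1, 46.3 and 31.0 FPM with U46619 and 59.4, 48.5, 48.1, 51.2 and 35.2 FPM with EGF+U46619. In every set the combined culture was below the EGF culture, by the least in set 4. Its departures were −0.27, −0.44, −0.52, −0.21 and −0.33 (edgeR −0.35, SE 0.10, limma FDR 0.0387). The related Etv4 had a departure of −0.60 (SE 0.24, limma FDR 0.0488), ranging over the sets from −0.05 to −1.18.

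Dusp4, which encodes a nuclear phosphatase of ERK, read 41.7, 59.8, 27.0, 63.2 and 32.8 FPM in controls, 80.9, 100.8, 69.1, 86.3 and 59.1 FPM with EGF, 103, 77.9, 59.4, 123 and 34.9 FPM with U46619 and 129, 107, 80.9, 132 and 44.5 FPM with both. Each culture with a single agent read above its control. The combined culture was the highest of its set in sets 1 to 4, whereas in set 5 it lay below the EGF culture, and in all 5 it was under the value expected from adding the log2 changes. The departure was −0.54 (SE 0.23, limma FDR 0.0377), on a change of 0.87 with EGF, 0.78 with U46619 and 1.10 with both. Dusp6, the cytoplasmic ERK phosphatase gene, had a departure of −0.44 (SE 0.16, limma FDR 0.0377) and Spred2 one of −0.33 (SE 0.16, limma FDR 0.0488).

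Spry4, a Sprouty gene and the feedback inhibitor with the smallest edgeR p, did not pass limma (FDR 0.0636). It read 24.2, 9.20, 9.71, 9.21 and 17.3 FPM in controls, 27.4, 14.4, 18.7, 10.4 and 29.2 FPM with EGF, 21.3, 8.74, 12.8, 10.2 and 21.6 FPM with U46619 and 23.9, 7.95, 11.8, 9.36 and 14.5 FPM with both. The EGF culture was the highest in every set. In sets 1, 2 and 5 the combined culture lay below the control. Departures were −0.01, −0.75, −1.03, −0.29 and −1.29 (edgeR −0.70, SE 0.17, unadjusted p 0.00089). Of the 14 listed feedback inhibitors of ERK and EGFR, all tested, 13 had a departure below 0, beside 7338 of all 14634 genes. Their median was −0.23, beside −0.00 over all genes. Of the 14, 12 were short of the sum, beside 74.8% of all genes. Dusp4, Dusp6 and Spred2, 3 of the 14, passed limma below it, beside 0.622% of all genes.

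**Figure D2:**
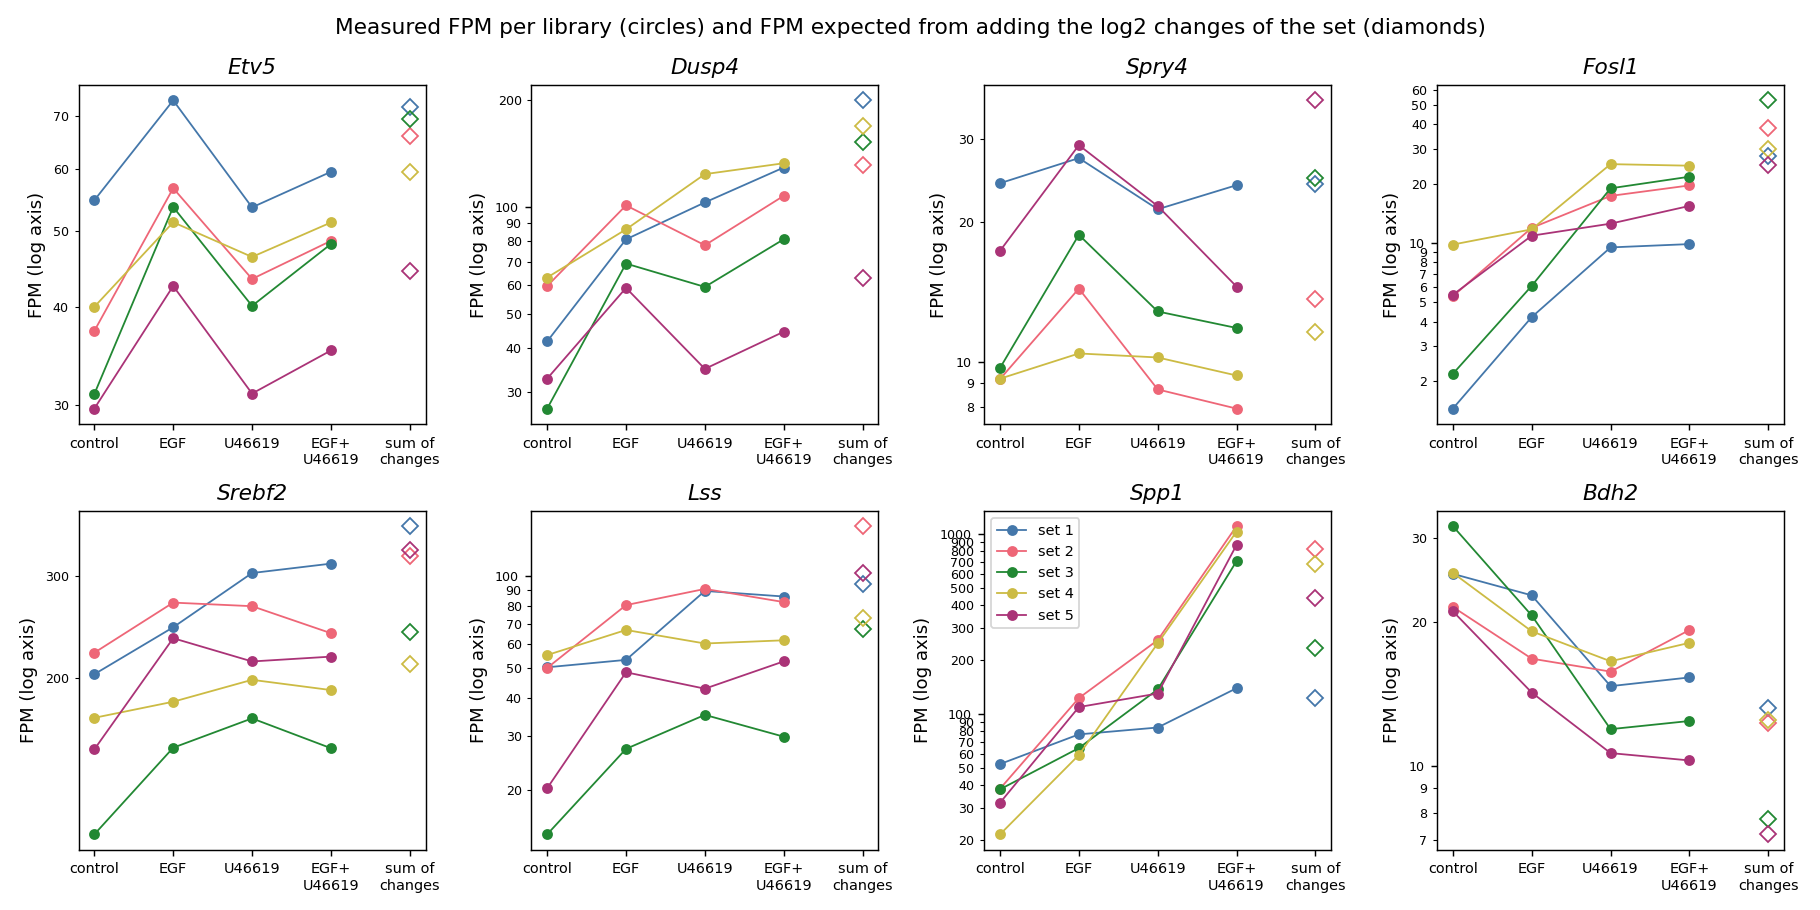
FPM (log axis) in each of the 20 libraries for Etv5, Dusp4, Spry4, Fosl1, Srebf2, Lss, Spp1 and Bdh2, by group (control, EGF, U46619, EGF+U46619), 1 point per culture set; diamonds mark the FPM expected with EGF+U46619 from adding the set's log2 changes. For Dusp4 the measured points run from 44.5 to 132 FPM and lie under their diamonds in all 5 sets, and for Spp1, at 139 to 1105 FPM, they lie above them.

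Fosl1, an AP-1 subunit gene that ERK stabilises and induces, had the most negative departure of the named genes at 5 FPM or more. It read 1.45, 5.38, 2.17, 9.83 and 5.47 FPM in controls, 4.21, 11.9, 6.07, 11.7 and 10.9 FPM with EGF, 9.51, 17.3, 18.9, 25.1 and 12.5 FPM with U46619 and 9.88, 19.6, 21.7, 24.7 and 15.4 FPM with both. The combined culture read near the U46619 culture of its set, although EGF alone was above control in each. The departures were −1.22, −0.91, −1.11, −0.27 and −0.65 (edgeR −0.83, SE 0.32, limma FDR 0.0377). Among the 13 AP-1 and EGR genes Fosl1 was the only one to pass, and the list's median was −0.07. Egr3, an immediate early gene, had a departure of 0.67 (SE 0.30), with values of −0.48 with U46619 and 0.60 with both, and did not pass limma (FDR 0.133).

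Other growth-related genes that passed below the sum were Nrg1 (−0.53, limma FDR 0.0377), a ligand gene of ERBB receptors, Epha2 (−0.56, limma FDR 0.0472), an ephrin receptor gene, and Phlpp1 (−0.50, limma FDR 0.0377), a phosphatase gene of AKT. Trib2 (−0.41), Nfkb2 (−0.34), an NF-kappaB subunit gene, and Disp1 (−0.45) passed at the same FDR of 0.0377. Fgd6 and Arhgap27, regulators of small GTPases, were at −0.68 and −0.53 and did not pass (limma FDR 0.0562 and 0.0528). All 12 genes named for the smallest edgeR p below the sum had both single changes above 0. The single changes enter the departure with a minus sign, so genes picked for a low departure tend to read high with each agent.

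Ccnd1, which encodes cyclin D1, passed below the sum (departure −0.37, SE 0.15, limma FDR 0.0377). It read 319, 328, 273, 320 and 367 FPM in controls, 421, 418, 479, 409 and 686 FPM with EGF, 260, 310, 332, 337 and 493 FPM with U46619 and 316, 297, 395, 367 and 612 FPM with both. The EGF culture was the highest of its set throughout, and the combined culture came next in sets 3 to 5. All 21 mitosis genes tested had a departure below 0, beside 7338 of all 14634 genes, with a median of −0.34. None of the 21 passed limma or had an edgeR p under 0.05. Their set medians were 0.09, −0.25, −0.75, −0.08 and −0.98, so that sets 3 and 5 carried most of the value. Of 25 DNA replication genes, 23 were below 0 (median −0.18), beside 7338 of all 14634 genes. Uhrf1, a DNA methylation cofactor gene, was the 1 that passed, while 0.622% of all genes passed below the sum.

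Genes of cholesterol synthesis formed the list with the lowest median. All 16 members tested were short of the sum, beside 74.8% of all genes, at a median departure of −0.42. The median change was 0.39 with EGF, 0.54 with U46619, 0.92 for the sum and 0.49 with both. Of the 16, 7 were below 0 in all 5 sets, beside 7.77% of all genes. An edgeR p under 0.05 was found for 6, beside 1.59% below the sum, and 3 passed limma, beside 0.622% below it. With U46619 and with EGF+U46619, 9 of the 16 rose in edgeR (beside 13% and 15.9% of all genes), and none passed FDR 0.05 with EGF alone. Set medians of the departure were −0.14, −0.43, −0.65, −0.03 and −0.87, and sets 1 and 4, which carry the same mouse number, had the values closest to 0.

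Srebf2, the transcription factor gene for sterol synthesis, read 203, 221, 107, 170.5 and 150 FPM in controls, 245, 270, 151.4, 181.8 and 234 FPM with EGF, 303, 266, 170, 198 and 213 FPM with U46619 and 315, 239, 151.1, 190 and 218 FPM with both. Adding EGF to U46619 left the reading near that of U46619 alone in each set. Its departure was −0.41 (SE 0.12, limma FDR 0.0377). Lss, which encodes lanosterol synthase, read 50.4, 50.1, 14.3, 55.2 and 20.2 FPM in controls, 53.3, 80.5, 27.2, 66.7 and 48.5 FPM with EGF, 89.6, 90.9, 35.2, 60.3 and 42.9 FPM with U46619 and 85.9, 82.4, 29.8, 61.7 and 52.7 FPM with both. Departures of Lss were −0.14, −0.82, −1.14, −0.24 and −0.95 (edgeR −0.65, SE 0.21, limma FDR 0.0377). Of 10 fatty acid synthesis genes 9 were below 0 (median −0.30), beside 7338 of all 14634 genes. Fasn, the fatty acid synthase gene, passed at −0.41 (SE 0.16, limma FDR 0.0456).

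Since the sterol genes moved together in sign, the promoters of the RefSeq table (assembly GRCm38.p6, 250 bases before to 50 after the start) were searched on both strands for TCACNCCAC, a form of the sterol regulatory element that SREBP-2, the product of Srebf2, can bind. A promoter was in the table for 9 of the 16 genes, and 1 of the 9 (11.1%), Hmgcs1, held the letters, beside 388 of 27025 genes with a promoter in the table (1.44%). The 2 promoters shown are that of Hmgcs1 (chr13:119690101-119690400, plus strand), the gene of HMG-CoA synthase, with the match at base 114 of the window in capitals, and that of Srebf2 (chr15:82147019-82147318, plus strand), where these letters were not found. The match is a description of sequence only. Hmgcs1 had a departure of −0.40 and did not pass limma (FDR 0.133).
Hmgcs1: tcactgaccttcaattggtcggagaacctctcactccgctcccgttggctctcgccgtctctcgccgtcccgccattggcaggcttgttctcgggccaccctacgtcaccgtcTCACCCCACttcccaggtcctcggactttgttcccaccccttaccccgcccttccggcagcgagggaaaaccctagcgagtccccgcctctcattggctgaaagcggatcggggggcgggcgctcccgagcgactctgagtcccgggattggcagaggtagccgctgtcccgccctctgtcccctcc
Srebf2: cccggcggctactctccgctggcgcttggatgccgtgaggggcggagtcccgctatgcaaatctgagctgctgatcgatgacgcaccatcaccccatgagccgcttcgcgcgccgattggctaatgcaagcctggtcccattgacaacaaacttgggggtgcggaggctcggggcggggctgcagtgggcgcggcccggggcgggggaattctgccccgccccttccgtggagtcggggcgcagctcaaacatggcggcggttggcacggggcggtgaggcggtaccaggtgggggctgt

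Of 19 collagen and elastic fibre genes 17 had a departure below 0, beside 7338 of all 14634 genes, with a median of −0.29. Col4a2 and Loxl2 were the 2 that passed, while 0.622% of all genes passed below the sum. Of 11 provisional matrix and matricellular genes 8 were below 0 (median −0.10), and the 1 that passed, Spp1, was above the sum. Col4a2, which encodes a basement membrane collagen chain, read 1203, 1578, 737, 1110 and 841 FPM in controls, 1461, 1859, 1110, 1215 and 713 FPM with EGF, 1327, 1722, 1107, 1191 and 974 FPM with U46619 and 1422, 1401, 997, 1115 and 672 FPM with both. The combined culture was below the EGF culture in every set. Its departure was −0.39 (SE 0.15, limma FDR 0.0472), and its neighbour Col4a1, which shares a promoter region with it, was at −0.34 and did not pass (limma FDR 0.0723). Loxl2, a lysyl oxidase gene, was at −0.34, and the perlecan gene Hspg2 (−0.50) passed as well. Of 14 contractile and SRF target genes, 9 fell with EGF+U46619 and 4 with U46619 in edgeR (beside 15.3% and 12.6% of all genes), the median departure was −0.11 and 1, the vinculin gene Vcl, passed (−0.35, SE 0.28, limma FDR 0.0435). Myocd, the smooth muscle coactivator gene at under 5 FPM, had −1.52 (SE 0.62) and did not pass (limma FDR 0.19).

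**Figure D3:**
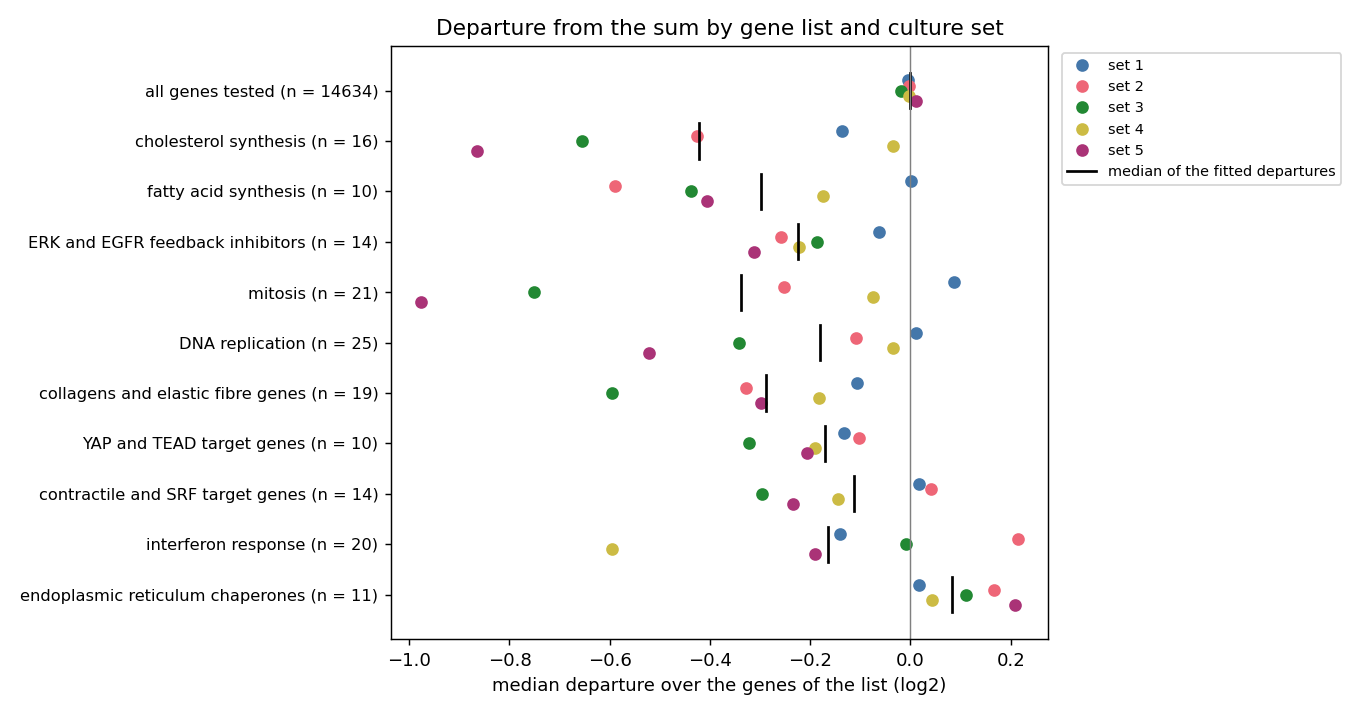
Median log2 departure over the genes of 10 lists and over all 14634 genes tested, 1 point per culture set; the black bar is the median over the list of the departures fitted to all 5 sets. Cholesterol synthesis has the lowest bar at −0.42 and ER chaperones the highest of the lists drawn at 0.08, with sets 3 and 5 lowest for mitosis genes.

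Above the sum were mainly genes that fell with U46619. Scg2, which encodes the neuropeptide precursor secretogranin II, read 1.79, 6.13, 36.6, 7.55 and 16.7 FPM in controls, 1.42, 1.08, 13.6, 2.57 and 2.54 FPM with EGF, 0.334, 0.503, 3.58, 1.06 and 2.92 FPM with U46619 and 0.19, 0.351, 3.34, 0.93 and 1.08 FPM with both. The combined culture was the lowest of each set, yet less low than the sum in all but set 1. Departures were −0.01, 1.84, 1.31, 1.26 and 1.38 (edgeR 1.13, SE 0.42, limma FDR 0.0377), with readings of under 1 FPM in some libraries. Fst, which encodes the activin antagonist follistatin, had a departure of 0.31 (SE 0.14, limma FDR 0.0458) and fell with EGF (−0.57) and with U46619 (−1.21). Igfbp3, an IGF-binding protein gene, was at 0.60 (SE 0.31, limma FDR 0.0472).

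Bdh2, the gene of a cytosolic dehydrogenase, read 25.3, 21.5, 31.8, 25.4 and 21.1 FPM in controls, 22.8, 16.8, 20.7, 19.2 and 14.3 FPM with EGF, 14.7, 15.8, 11.96, 16.6 and 10.7 FPM with U46619 and 15.3, 19.3, 12.4, 18.1 and 10.3 FPM with both. U46619 and the combination overlapped closely. Its departure was 0.54 (SE 0.19, limma FDR 0.0377). Cebpb and Ddit3, stress-responsive transcription factor genes, were at 0.45 (SE 0.21) and 0.34 (SE 0.23) and passed (limma FDR 0.0377 for each), while the 16 genes of the ATF4 and amino acid list had a median of −0.06. For Cebpb the departure was −0.00 in set 1 and 0.51 to 0.65 in the other sets. Translation genes were also among the 30, with Eif4a2 (0.30, limma FDR 0.0434), Naca (0.32) and the ribosomal protein genes Rps3a1 (0.32) and Rps27a (0.35), families with many near-identical pseudogenes for which multi-mapping reads were counted. The other genes named for the smallest edgeR p above the sum had departures from 0.29 (Zfp277) to 0.57 (Grcc10), and of those 12 genes Eif4a2, Zfp637 and Bdh2 passed. Of 11 ER chaperone genes 10 were above 0, beside 7296 of all 14634 genes, at a median of 0.08, and none passed.

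**Figure D4:**
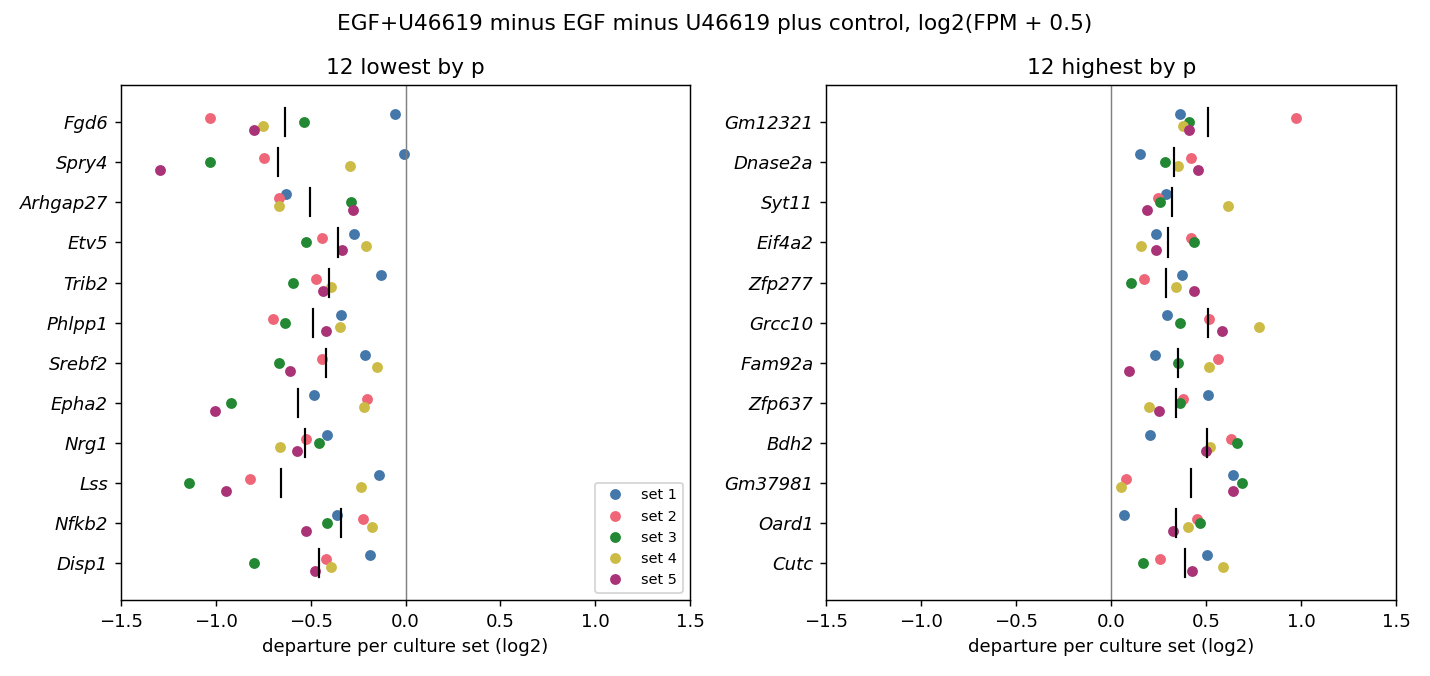
Log2 departure in each culture set (points) and its mean (bar) for the 12 genes named below the sum and the 12 above it. All 5 points of every gene lie on 1 side of 0, which was a condition for naming them.

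Spp1 stood beyond the sum. This gene, which encodes the secreted matrix protein osteopontin, read 52.5, 38.3, 38.0, 21.4 and 32.0 FPM in controls, 76.8, 122, 64.5, 59.0 and 109 FPM with EGF, 83.9, 257, 137, 247 and 130 FPM with U46619 and 139, 1105, 706, 1031 and 869 FPM with both. The combined cultures of sets 2 to 5 were at least 4 times as high as any single culture of their set, which was not so in set 1. Departures were 0.18, 0.44, 1.61, 0.62 and 0.99 (edgeR 1.00, SE 0.54, unadjusted p 0.0794, limma 0.77, FDR 0.0377). The single changes were 1.15 with EGF and 2.08 with U46619. Macrophages also express Spp1, and their 6 listed markers moved in both directions. Csf1r (4.92, 13.3, 11.9, 18.03 and 7.86 FPM in controls, 8.46, 24.8, 19.6, 20.05 and 14.6 FPM with both) and Cd68 (1.49, 1.24, 1.25, 1.97 and 2.43 FPM, then 1.90, 5.49, 2.54, 5.42 and 4.43 FPM) were higher with both agents in each set. Lyz2 was lower in each (35.4 to 119 FPM, then 14.8 to 45.6 FPM), and Ptprc, Adgre1 and Itgam were at most at 0.124 FPM in the 20 libraries. The part of macrophage RNA in the Spp1 values was not tested. At 24 h the departure of Spp1 was −1.10 (SE 0.93).

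The other 8 genes beyond the sum that passed had a departure below 0 and a lower group mean with both agents than in controls. They were Unc5b (−0.36), Slit3 (−0.35), Epas1 (−0.41), Pcsk6 (−0.39), Ddr1 (−0.29), Cx3cl1 (−0.44), Fam43a (−0.33) and Adamtsl3 (−0.57). Unc5b and Slit3 belong to guidance signalling, Epas1 encodes the hypoxia-inducible factor HIF-2alpha and Ddr1 a collagen receptor. The summed change was −0.01 for Ddr1, −0.11 for Unc5b, −0.23 for Epas1, −0.42 for Slit3 and Cx3cl1 and −0.58 for Pcsk6. Where it is near 0, its sign is uncertain, and so is the label beyond the sum. Unc5b in set 1 read 705 FPM in the control and 801 FPM with both. In all 8 the single changes had opposite signs. Epas1, for example, was at 0.32 with EGF, fell with U46619 (−0.55, edgeR FDR 0.00316) and with EGF+U46619 (−0.64, edgeR FDR 0.000761), and had departures of −0.16, −0.49, −0.51, −0.65 and −0.21 (limma FDR 0.0377).

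Over the 28 gene lists the median departure ran from −0.42 (cholesterol synthesis) to 0.16 (RGS regulators). The 10 YAP and TEAD target genes were all below 0 (median −0.17), beside 7338 of all 14634 genes. Of 20 interferon response genes 18 were below 0 (median −0.16), and 15 fell with U46619 (beside 12.6% of all genes). Their set medians were −0.14, 0.21, −0.01, −0.59 and −0.19 in sets 1 to 5, so the sign was not the same in every set. Those 20 genes had 18 beyond the sum, whereas 74.8% of all genes were short of it. None of either list passed. Glycolysis and hypoxia genes, of which 14 of 18 rose with U46619 (beside 13% of all genes), had a median of 0.01. Of 8 small leucine-rich proteoglycan genes 4 were above 0 and 4 below (median −0.07). Ogn, the osteoglycin gene, was their 1 member to pass, above the sum (0.34, SE 0.52, unadjusted edgeR p 0.516, limma FDR 0.0377).

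The departure was also taken over genes chosen in other libraries, the 5793 genes tested at 48 h that edgeR called with EGF+U46619 at 24 h. Each value was signed by the 24 h change, so that a positive mean is a change in the 24 h direction. The mean change was 0.0962 ± 0.0847 (SD, n = 5 sets) with EGF, 0.319 ± 0.0961 with U46619, 0.415 ± 0.148 for the sum and 0.362 ± 0.122 with both. The mean departure was −0.0053, −0.0363, −0.0769, −0.0182 and −0.127 in sets 1 to 5, below 0 in each, with a mean of −0.0527 ± 0.0495. No test was made, since the smallest exact p over 5 sets is 0.0625. The mean was −0.0657 over the 2782 genes higher at 24 h and −0.0407 over the 3011 lower ones.

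**Figure D5:**
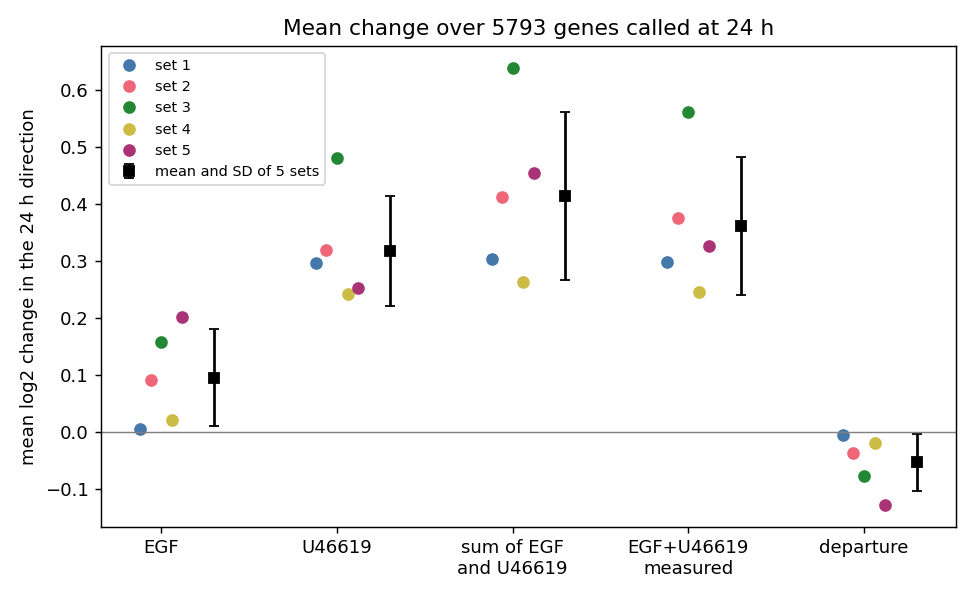
Mean log2 change, signed by the 24 h direction, over 5793 genes called with EGF+U46619 at 24 h, for EGF, U46619, their sum, EGF+U46619 measured, and the departure. Points are culture sets and bars the mean with SD; the departure lies below 0 in 5 of 5 sets, close to 0 in sets 1 and 4.

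The same departure at 24 h, from 24 libraries of 6 mice within a fit of 42, gave no gene past FDR 0.05 of 14653 in edgeR (460 at an unadjusted p under 0.05, 3.14%), and 1 in limma over the 6 mice (0.00682%, 2730 unadjusted), the interferon-induced Ifit3b. Of the 91 genes that passed below the sum at 48 h, 59 (64.8%) were below 0 at 24 h too, beside 48.5% of all genes below 0 at 48 h. Of the 30 above, 24 (80%) were above 0 at 24 h, beside 56.7%. An unadjusted edgeR p under 0.05 at both times was found for 8 of the 121, all with 1 sign at both times, beside 25 of 14179 genes tested at both times, 19 of them with 1 sign. The 121 were themselves chosen on the 48 h departure. They were Etv5 (−0.93 at 24 h), Etv4 (−1.51), Dusp4 (−1.03), Dusp6 (−0.90), Col4a2 (−0.80), Epas1 (−0.55), Fkbp5 (−0.46) and Scg2 (1.63). Spry4 was at −1.76, below 0 in 6 of 6 mice. List medians at 24 h were −0.57 for cholesterol synthesis, −0.43 for the feedback inhibitors and −0.83 for mitosis, and 0.84 for the interferon response.

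EGF alone at 48 h was measured again in 5 culture sets of the second batch, 4 of which carry mouse numbers that also occur in the first. Sets 1, 2 and 5 of the second batch share 1 mouse number, so the labels do not make the sets independent mice. The EGF libraries of the first batch enter the departure with a minus sign, so genes picked for a low departure tend to read high with EGF in that batch. The 91 genes below the sum had a median EGF change of 0.35 in the first batch and of −0.23 in the second, where the set medians ran from −0.56 to −0.06. The 30 genes above had −0.27 and 0.28. Etv5 was at 0.53 and −0.12, Dusp4 at 0.86 and −0.21, Srebf2 at 0.36 and −0.04 and Spp1 at 1.23 and 0.57, all as means of log2(FPM + 0.5) differences. One control library of the second batch, in its set 4, did not deviate with its own set (median correlation −0.29, against 0.57 to 0.94 for the others). Without that set, a choice made after seeing the data, the second batch had −0.16 for the 91 genes and 0.05 for the 30, Etv5 turned to 0.11, and Dusp4 was at −0.22, Srebf2 at −0.06 and Spp1 at 0.35. The difference between the batches was not tested.

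Long transcripts were frequent below the sum. The median exon length was 6410 bases for the 91 genes below the sum, 2514.5 bases for the 30 above and 3854 bases for all genes tested, and the GC content was 53.9%, 46.2% and 49.7%. Across 10419 genes the correlation of the departure with log2 exon length was 0.175, −0.384, −0.434, −0.180 and −0.105 in sets 1 to 5, a value across genes of 4 libraries each. After the trend with length and GC was removed from each set, limma called 93 genes of 14621 (0.636%), 73 below (0.499%) and 20 above (0.137%), among them 76 of the 121. Dusp4, Dusp6, Etv5, Fosl1, Lss, Ccnd1, Scg2, Bdh2, Cebpb and Spp1 were among the 76. Those that no longer passed included Srebf2 (limma FDR 0.0575 after the correction), Col4a2 (0.0717), Fasn (0.0986), Epha2 (0.0576), Vcl (0.0606), Zfp637 (0.0576), Ddit3 (0.0604) and Ogn (0.0653). The list median became −0.41 for cholesterol synthesis and −0.19 for the feedback inhibitors, from −0.42 and −0.20 on the same scale, and −0.22 for collagens, from −0.32.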

How the data were processed

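Messenger RNA of cultured mouse aVSMC was sequenced by the study, and the deposited tables hold raw counts per gene, which the authors made with HISAT2 2.1.0 (mm10) and featureCounts with Ensembl exons, multi-mapping reads included. Multi-mapping counts leave genes with near-identical copies uncertain. The first 48 h table (20 libraries) was used, with the 24 h table and the second 48 h table for values set beside it. All 7075 genes on chromosomes 9, X, Y and MT were listed at 0 and are not analysed here. Genes were filtered with filterByExpr (14634 kept) and scaled by TMM. Counting error is small at these depths (19936925 to 32797224 counts) for well-expressed genes, where the spread between sets sets the precision. It is not small at readings under 1 FPM, as for Scg2 in some libraries. Of the 121 genes that passed limma, 3 were under 5 FPM.

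The departure was tested with edgeR 4.0.16 (quasi-likelihood, R 4.3.3) as the EGF by U46619 term of a 2 by 2 model with the culture set as a block, with Benjamini-Hochberg FDR over all genes tested. It was also tested with limma 3.58.1 over the 5 per-set values of log2(FPM + 0.5), an alternative listed with the design, since the departure is defined within sets. DESeq2 1.42.0 was a further alternative. Tests were checked on simulated data. The simulation held no set-specific EGF or U46619 effects, so it cannot decide between edgeR with the block and limma. The set numbers paired the libraries: deviations from the group means correlated over 0.1 in 30 of 30 pairs within a set (0.307 to 0.902). The 2 sets with the same mouse number correlated at a median of 0.0752, other sets at −0.204 and libraries of 1 set at 0.772. The set was the block, and the mouse number an alternative.

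Named genes were Egfr, Tbxa2r, Spp1 and Klf15, up to 12 genes in each direction by the smallest edgeR p among genes with 1 sign in 5 of 5 sets and at least 5 FPM (none passed the FDR), and up to 4 genes of each of 28 lists. Some of the named genes are not reported here. Other genes that passed limma were chosen after their values were seen. The genes, lists and comparisons were chosen with earlier results of these data known. The trend with exon length and GC was removed per set with splines of 4 degrees of freedom. Promoter sequences came from RefSeq. All columns of the tables had a sample.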

Additional observations from a re-analysis of the deposited data

Results flagged for a closer look

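Among 75 named genes, 5 had 1 culture set whose departure stood apart from the other 4 (Dixon's criterion, critical value 0.71). Chance flags about 1 in 20 groups, so some of these are to be expected. Gm12321, a processed pseudogene, was at 0.98 in set 2 and at 0.36 to 0.41 in the other sets. Syt11, a synaptotagmin gene, was at 0.61 in set 4 and at 0.19 to 0.29 elsewhere. Srebf1, the fatty acid counterpart of Srebf2, was at 0.0335 in set 4 and at −0.37 to −0.28 elsewhere. Cebpb was at −0.00199 in set 1 and at 0.51 to 0.65 elsewhere. Ccl20, a chemokine gene under 5 FPM, was at −1.66 in set 5 and at −0.40 to −0.01 elsewhere.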

How the results depend on the processing

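edgeR called 0 genes for the departure at FDR 0.05 with the likelihood ratio test (468 at an unadjusted p under 0.05), the robust fit (432), DESeq2's size factors (428), at least 10 counts per library (339), all 40 libraries of 48 h (207), the labels' mouse number as block (195) and without each set in turn (237 to 455). Genes passed under limma over the sets with pseudocounts of 0.5, 2 and 5 (121, 87 and 74), with no filter on low counts (27) and under fits chosen after seeing the data, namely set-specific EGF and U46619 effects (112) and limma after length and GC (93). With a set-specific effect of 1 agent alone the count was 0 (1119 unadjusted for U46619, 397 for EGF). Limma without each set, chosen after seeing the data, called from 0 to 657, and over the 6 mice at 24 h, also chosen then, 1.

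The pairing of cultures by set bears on all counts. With no replicate block the departure gave 0 genes (46 unadjusted), EGF 0, U46619 146, EGF+U46619 433, EGF added to U46619 0 and U46619 added to EGF 29. With each set left out, EGF called 0 to 9 genes, U46619 1967 to 3543, EGF+U46619 2546 to 4604, EGF added to U46619 0 to 1 and U46619 added to EGF 1226 to 2575. The mean departure over the 24 h genes ran from −0.0646 to −0.0342 with a set left out. It was −0.0365 with a pseudocount of 5, where set 1 turned to 0.000287.

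Signs turned mostly near 0 or with both 48 h batches in 1 fit. Tbxa2r (0.01) was at −0.000652 in DESeq2, −0.0140 in limma, −0.0357 after length and GC, −0.0103, −0.00057 and −0.0162 with set-specific effects of both agents, U46619 and EGF, −0.00136 with no filter, −0.333 with all 40 libraries, and −0.0509 and −0.0249 without sets 2 and 3. With all 40 libraries Klf15 was at −0.0945, Nrg1 at 0.0981, Fasn at 0.0290, Ccnd2 at 0.0364, Timp3 at 0.0102, Slc7a11 at 0.280, Ereg at 0.137 and Ptger4 at 0.00675. Some genes that passed kept their sign but came near 0 in at least 1 setting. On the log2 scale the value closest to 0 was −0.00114 for Dusp4, −0.0238 for Etv5 and −0.0246 for Ccnd1. It was −0.0192 for Vcl and −0.0441 for Spred2. For Fosl1, Lss, Srebf2 and Spp1 it was −0.326, −0.317, −0.217 and 0.685. Without 1 set Egfr ran from −0.116 to 0.0149, the latter without set 5, and Tbxa2r up to 0.0491, and Slc7a11 (−0.26) turned to 1.17 FPM on the linear scale. The cause of these differences was not tested. With 5 sets, the median standard error of the departure was 0.171 in edgeR and 0.1 in limma, which limits what can be resolved.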
